A study of Mus musculus with 2 samples.

Results

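Chromosome 11 was the autosome with most accessible sites per Mb in lymphoma T6, and its sites are described here from a start of 3.2 Mb onward. The members were all sites of the deposited list on chromosome 11 of the mm9 build that started at or after this position, which leaves out a repeat-prone first stretch. This rule gave 4417 of the 53593 sites in the list and left out 53 sites of the chromosome. The sites were mapped by DNaseI sequencing in a tumour of the Eμ-myc mouse, in which Myc is driven by an immunoglobulin heavy chain enhancer, which is active in B cells. The tumour had the genotype Arf-/- Trp53+/+ on the strain C57/Bl6, and its cells were untreated and came from lymph nodes. No step that sorted the cells is described in the sources used here, so that other lymph node cells may have been in the library. The series holds 2 libraries of this tumour, DNaseI and input. The list of the DNaseI library was used, and the input was not analysed here.

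DNaseI cuts DNA where nucleosomes are missing or displaced, as at active promoters, enhancers and insulators. Such sites are unevenly placed along mammalian chromosomes: gene-rich stretches of open, early replicating chromatin alternate with gene-poor stretches in which closed chromatin lies at the nuclear lamina. Mouse chromosome 11 is known as gene-rich. It carries Trp53, which encodes the p53 tumour suppressor, Ikzf1 and Ebf1, which encode transcription factors of B cell development, and Cd79b, which encodes a signalling chain of the B cell receptor. In a RefSeq gene table of the GRCm38.p6 assembly the whole chromosome held 1609 protein-coding genes, which came to 2.75 members per gene. No such ratio is given here for another autosome, so it does not show whether sites exceed gene content. The gene table is of another build than the sites, so no site was placed at a gene and no sequence of a site was printed. The labelled cell type could not be checked against its marker genes for the same reason.

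The list gives the position of each site but no count or score, so the depth of the library is unknown and sites cannot be ranked by signal. There was 1 library and no replicate. No p-value is given, and intervals are 95% intervals for counting error only. Sites of the same window share their surroundings and are not replicates, so that the true uncertainty is larger. DNA copy number along the chromosome was not tested. Near the limit of the rule, the last site left out was 4573 bp wide (chr11:3188247-3192819), and the first member was 446 bp wide (chr11:3213737-3214182).

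The chromosome was chosen for its density, which is therefore a description. Between the first and the last member lay 118.6 Mb, with 37.2 sites per Mb (36.2 to 38.4), and sites covered 3.07% of this length. Chromosome 19 came next with 34.5 sites per Mb (33.0 to 36.0), and the median of the 18 other autosomes was 22.0. Here and below, the other autosomes were counted with all their sites, and no first stretch was left out. Chromosome 11 had 1.70 times their median density, and 1.71 times with its own first stretch included. Stretches of over 500 kb with no site took 33.9% of the length of chromosome 11, against a median of 52.7% on the other autosomes, and chromosome 19 was lower with 26.7%. With these stretches taken out, chromosome 11 held 56.3 sites per Mb, against a median of 41.9 and a highest value of 53.6 on chromosome 3. The place in this order depended on the length of stretch taken out. With stretches of over 200 kb taken out, chromosome 3 was above chromosome 11, with 70.6 against 64.4 sites per Mb.

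**Figure D1:**
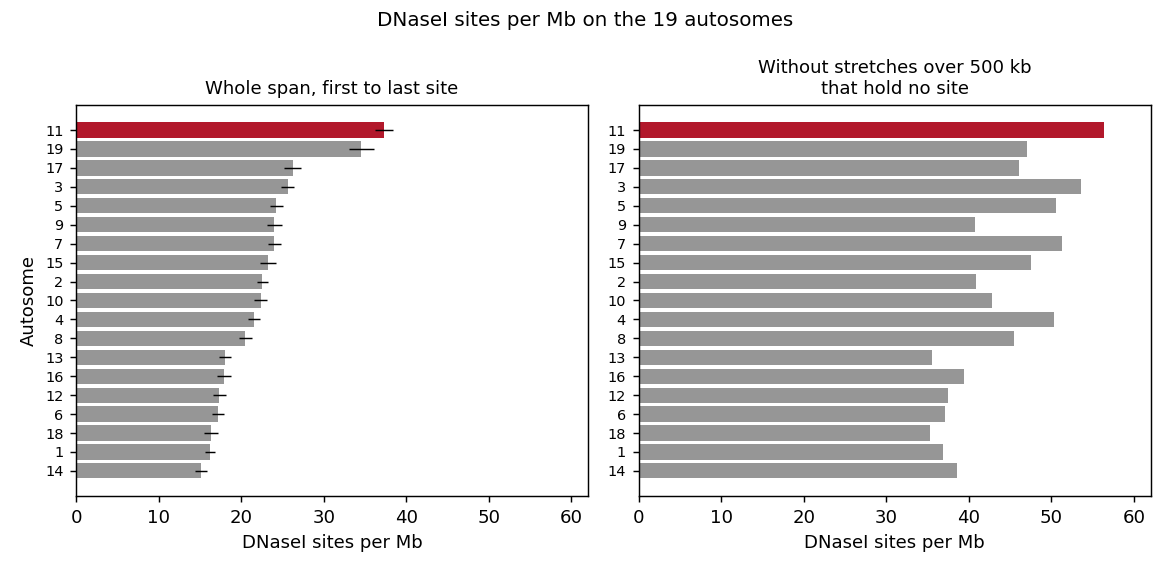
DNaseI sites per Mb on each of the 19 autosomes, over the whole span (left, bars with 95% Poisson intervals) and with site-free stretches of over 500 kb taken out (right, no interval drawn). Chromosome 11 (red) has 37.2 sites per Mb on the left and 56.3 on the right, and the second highest bar is chromosome 19 on the left and chromosome 3 on the right.

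The sites were spread over many dense windows rather than a few extreme ones. Of the 119 windows of 1 Mb, 39 held 57 or more sites per Mb (32.8%), and these dense windows held 66.6% of the sites (65.2 to 68.0%). On the other autosomes, dense windows were between 4.27% of windows on chromosome 13 and 24.1% on chromosome 19. A high share of dense windows goes with the density for which chromosome 11 was chosen. The densest window of chromosome 11 held 120 sites (99.5 to 143), which 8 other autosomes exceeded with their own densest window, up to 186 on chromosome 10. The 12 densest windows held 26.2% of the sites (24.9 to 27.5%). The share held by the densest 10% of windows was higher on each of the 18 other autosomes, from 29.2% on chromosome 19 to 41.1% on chromosome 3. It was thus lowest on chromosomes 11 and 19, which also had most sites per Mb. This order is therefore not independent of the density for which chromosome 11 was chosen.

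Windows differed far more than counting error gives. The mean was 37.2 sites over the 117 complete windows, with an SD between windows of 32.1, and the variance was 27.7 times the mean. The median window held 32 sites, with quartiles of 7 and 61. No site fell in 17 windows (14.3%, 8.55 to 21.9%), and 25 windows held fewer than 5 sites per Mb. These 25 windows together held 16 sites, or 0.362% of the members. Neighbouring windows were alike over a short range. Pearson's r between window counts was 0.60 at a distance of 1 Mb (116 pairs), 0.42 at 2 Mb and 0.07 at 5 Mb. These values are a description, because windows along a single chromosome are not replicates.

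**Figure D2:**
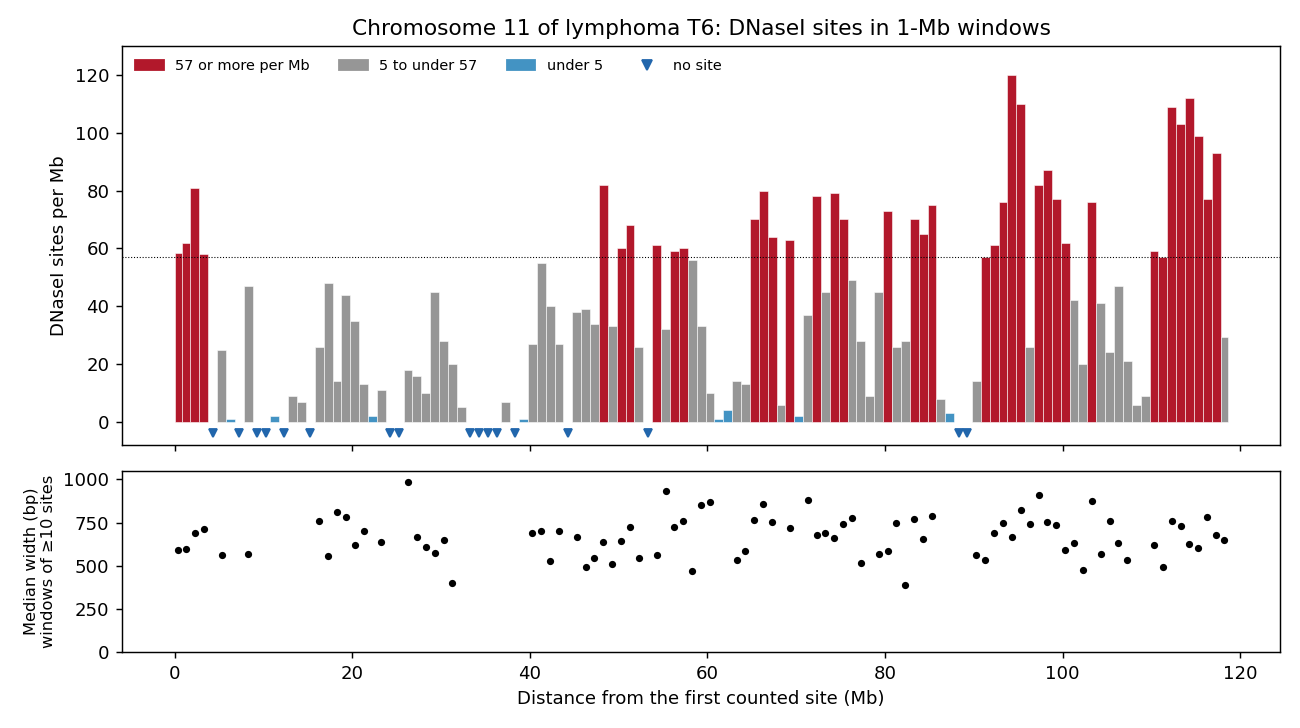
DNaseI sites per Mb in 1-Mb windows along chromosome 11 (top, bars; red for 57 or more, blue for under 5, triangles for windows with no site) and the median site width of windows with 10 or more sites (bottom, points), against the distance from the first counted site in Mb. Of the 39 dense windows, 29 lie beyond the midpoint, where the last long red block holds 709 sites in 8 windows, and 19 of the 25 windows under 5 lie before it.

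The part of the chromosome far from its start was the denser. The 59.3 Mb on either side of the midpoint held 1502 and 2915 sites, or 25.3 (24.1 to 26.6) and 49.2 (47.4 to 51.0) per Mb. Of the 28 site-free stretches of over 500 kb, 17 lay before the midpoint with 28.4 Mb in all, and 11 lay after it with 11.8 Mb. The difference remained outside these stretches, with 48.6 sites per Mb before the midpoint (46.1 to 51.1) and 61.4 after it (59.2 to 63.7). By segments of 10 Mb, the density was lowest at 10 to 20 Mb with 9.1 sites per Mb (7.33 to 11.2) and at 30 to 40 Mb with 12.4 (10.3 to 14.8). Among these segments, the density was highest at 110 to 120 Mb, with 65.2 (60.3 to 70.4). The part after 120 Mb was too short to be a segment. It held 93 sites at 120 to 121 Mb and 24 in the last part window. The rise was not even: the first segment, counted from the first member to 10 Mb, held 40.2 sites per Mb (35.6 to 45.3), and that at 60 to 70 Mb held 34.1 (30.6 to 37.9), below its neighbours with 45.5 and 49.3.

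Dense windows lay side by side in blocks. The 39 dense windows formed 15 runs, and 33 of them lay in 9 runs of at least 2 windows. The longest run covered 8 windows at 113 to 121 Mb and held 709 sites, which were 16.1% of the members in 6.75% of the length. Its fullest window was that at 117 to 118 Mb with 112 sites, followed by 109 sites at 115 to 116 Mb, 103 at 116 to 117 Mb, 99 at 118 to 119 Mb and 93 at 120 to 121 Mb. Without the chromosome from 113 Mb on, chromosome 11 held 33.6 sites per Mb (32.5 to 34.7). Chromosome 19 had 34.5, but no dense run was taken out of it, so the values are not like for like. The run at 94 to 99 Mb held 424 sites in 5 windows. It ended with the densest neighbours of the chromosome, 120 sites at 97 to 98 Mb and 110 sites at 98 to 99 Mb. The run at 100 to 104 Mb, with 87 sites at 101 to 102 Mb and 82 at 100 to 101 Mb, held 308 sites. Of the 10 densest windows, only that at 51 to 52 Mb, with 82 sites, lay outside these 3 runs. The run at the start of the chromosome, from the first member to 7 Mb, held 247 sites or 65.2 per Mb (57.4 to 73.9), so that high density was not limited to the far part.

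Long parts of the chromosome held no site at all. The longest such stretch ran for 4.83 Mb (chr11:35655936-40490918), and a site of 278 bp ended it. The next were 3.16 Mb (chr11:90559192-93717844), 2.36 Mb (chr11:14043206-16407498), 2.32 Mb (chr11:9036953-11361476) and 2.32 Mb (chr11:46262053-48585035). In all, 13 stretches of over 1 Mb took up 29.1 Mb. Gaps in the assembled sequence were not looked up. The 53 sites beside the 28 stretches of over 500 kb, of which some border a stretch on each side, had a median width of 590 bp (480 to 721). Of them, 3 were wider than 1500 bp (5.66%, 1.18 to 15.7%), an interval that includes the 11.9% of all members.

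Some neighbouring windows of 1 Mb differed sharply in count. The count fell from 110 to 26 sites at 99 Mb, from 75 to 8 at 89 Mb, from 63 to 2 at 73 Mb and from 58 to 0 at 7 Mb. It rose from 0 to 61 at 57 Mb and from 13 to 70 at 68 Mb. These positions are limits of windows, and the change itself could lie elsewhere. A cluster of 19 sites crossed 99 Mb (chr11:98985127-99051155), and the next site-free stretch of over 500 kb began at chr11:99326324. The stretch across 7 Mb began at chr11:6669326. The median step between neighbouring windows was 17 sites. Holes of the same kind, windows with fewer than 5 sites between windows with at least 20, were found at 7 to 8, 47 to 48, 56 to 57 and 73 to 74 Mb. The hole at 56 to 57 Mb was part of a stretch of 1.93 Mb (chr11:55332817-57258895). This stretch ended inside the window at 57 to 58 Mb, which held 61 sites. The opposite case occurred at 11 to 12 Mb. This window held 47 sites, which lay within 514 kb (chr11:11361477-11875057), and the windows on both sides held none. Sites covered 7.01% of this island, their median width was 571 bp, and 5 of the 47 were wide. It also held the single cluster of sites found between 7 and 19 Mb (14 sites, chr11:11641762-11689351). The limits for holes and islands were chosen after the windows were seen.

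Widths on chromosome 11 were close to those of the other autosomes. The median width was 689 bp (671 to 705), with quartiles of 363 and 1077 bp, and medians on the other autosomes ran from 584 bp on chromosome 3 to 685 bp on chromosome 7. Narrow sites of under 400 bp were 28.8% of the members (27.5 to 30.2%) and held 10.7% of the bases in sites. Those over 1500 bp, called wide, were 11.9% (11 to 12.9%) and held 29.1%. Chromosome 11 stood in the sixth place of the 19 autosomes for its share of wide sites, and it had the lowest share of narrow ones after chromosome 13 with 28.3%. The narrowest width of the list, 249 bp, was that of 77 members (1.74%), and 69 members (1.56%) were wider than 2500 bp.

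Sites in dense windows were somewhat wider. In windows of 57 or more sites per Mb, the median width was 712 bp (691 to 733, 2941 sites), and it was 634 bp in windows of 30 to under 57 (598 to 687, 885 sites). The classes below had medians of 647 bp for 10 to under 30 (589 to 684, 509 sites) and 672.5 bp for under 10 (500 to 892, 82 sites), so that the median did not rise steadily with density. Narrow sites were 27.2% in dense windows (25.6 to 28.8%) and 32.0% in all others (29.7 to 34.5%), a difference of -4.88 percentage points (-7.75 to -2.01). The share of wide sites was 7.32% in the sparsest class (2.73 to 15.2%), 8.84% (6.52 to 11.7%) and 11.5% (9.50 to 13.8%) in the next, and 12.7% in dense windows (11.5 to 14.0%). On the other autosomes the median rose at each step. It was 604.5 bp in the sparsest class (575 to 633), then 612 bp (600 to 624), 657 bp (649 to 667) and 697 bp in dense windows (687 to 705). Their share of wide sites did not rise steadily, with 10.6%, 9.96%, 10.4% and 13.1% in the same order. The interval of the median in the sparsest class of chromosome 11 covers 604.5 bp. Single chromosomes differed. In the same order, the medians were 660, 640, 679 and 708 bp on chromosome 17, which did not rise steadily either. On chromosome 19 they rose, with 324, 585.5, 629 and 705 bp. The sparsest class held 80 sites on chromosome 17 and 37 on chromosome 19.

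**Figure D3:**
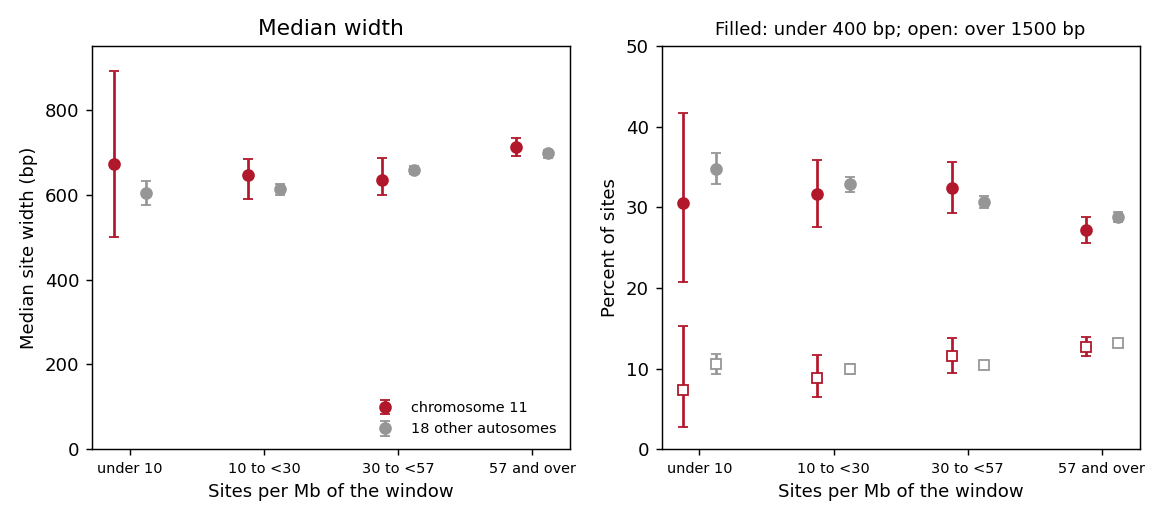
Median site width in bp (left) and percent of sites under 400 bp (right, filled circles) and over 1500 bp (right, open squares) by the number of sites per Mb of the 1-Mb window, on chromosome 11 (red) and the 18 other autosomes (grey). Error bars are 95% counting intervals, and on chromosome 11 the dense class has a median of 712 bp and a narrow share of 27.2%.

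Windows differed in the width of their sites, also among the dense ones. Among the 75 windows with at least 20 sites, the share of narrow sites ran from 15.9% at 100 to 101 Mb (13 of 82 sites) to 53.6% at 85 to 86 Mb (15 of 28). The dense window at 114 to 115 Mb had 28 narrow sites of 57 (49.1%) and a median width of 494 bp. That at 100 to 101 Mb had a median of 907.5 bp. Wide sites were 19 of 76 (25%) at 106 to 107 Mb, 14 of 60 (23.3%) at 60 to 61 Mb and 18 of 80 (22.5%) at 69 to 70 Mb, and none of 27 at 43 to 44 Mb. Across the 85 windows with at least 10 sites, Spearman's rho between the count and the median width was 0.25, as a description. These windows were picked as extremes among many, and some spread of this kind comes from small counts.

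Of the 10 widest sites of the chromosome, 8 lay in dense windows and 2 in the 10 densest. The widest covered 5113 bp (chr11:62418067-62423179), ranked 18 in the whole list, and lay in a window of 33 sites at 95 bp from its neighbour. It was followed by sites of 4843 bp (chr11:77793688-77798530), 4814 bp (chr11:74641621-74646434) and 4738 bp (chr11:117640433-117645170), of which the last lay in a window of 112 sites. Next came sites of 4458 bp (chr11:87561449-87565906) and 4277 bp (chr11:87567026-87571302), then 4255 bp (chr11:77989377-77993631), 4047 bp (chr11:75466629-75470675) and 4029 bp (chr11:87571616-87575644). The list of 10 closed with 3835 bp (chr11:98634055-98637889). Of these, 3 sites were immediate neighbours at 87 to 88 Mb, with gaps of 1.12 and 0.313 kb between them. They belonged to a cluster of 10 sites without a narrow one (chr11:87533660-87585052), of which 40.7% was covered and whose median width was 1412 bp. The site of 4843 bp at 77 to 78 Mb was the opposite, with 1 other site in its group. The 69 sites of over 2500 bp were spread over 39 windows, with at most 5 in a window, and 51 of them (73.9%, 61.9 to 83.7%) lay in dense windows, an interval that includes the 66.6% of all members.

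Sites were close to each other in part of the chromosome and far apart in the rest. The median gap from the end of a site to the start of the next was 6.18 kb (5.75 to 6.53, 4416 gaps), with quartiles of 1.29 and 18.6 kb. The shortest gap was 52 bp. Median gaps were shorter on chromosomes 3 (4.92 kb) and 7 (6.01 kb), and the longest was that of chromosome 13 (9.28 kb). Gaps of up to 500 bp were 17.5% of the gaps (16.4 to 18.6%), and those of 500 bp to 1 kb were 5.46%. The distance between sites was held by few gaps: the 139 gaps of over 100 kb (3.15%) took up 52.9% of it, and the 28 of over 500 kb took up 35.0%. Sites joined at gaps of at most 1 kb formed 3405 regions, of which 2619 were single sites. The region with most sites had 11 in 13642 bp (chr11:5905452-5919093), and 65.0% of it was covered.

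**Figure D4:**
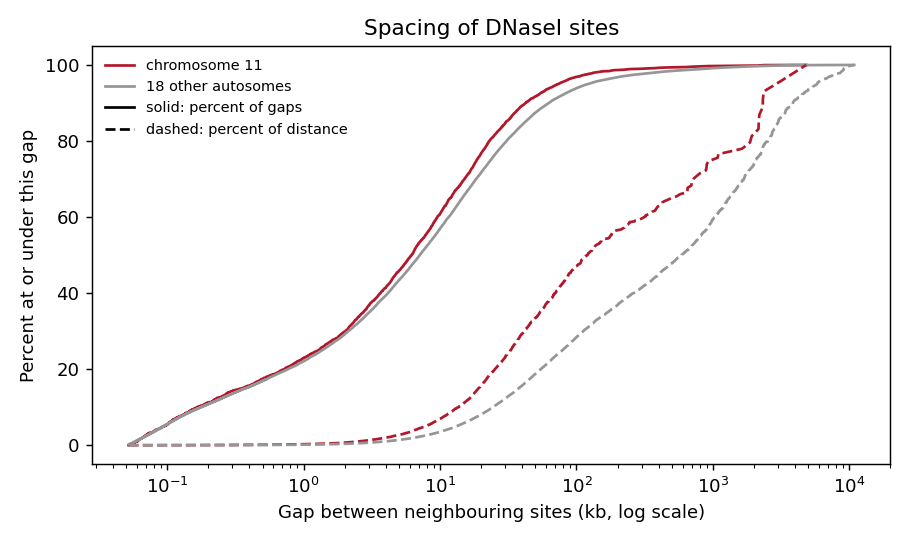
Cumulative percent of gaps (solid lines) and of the distance they hold (dashed lines) against the gap between neighbouring DNaseI sites in kb on a log scale, for chromosome 11 (red) and the 18 other autosomes (grey). On chromosome 11 the median gap is 6.18 kb, while gaps of over 100 kb hold 52.9% of the distance.

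Narrow sites were most frequent both beside a close neighbour and far from any other site. Of the 771 pairs at most 500 bp apart, 143 (18.5%, 15.9 to 21.5%) had narrow sites on both sides, against 69 of 1254 pairs (5.50%, 4.31 to 6.91%) at 500 bp to 5 kb and 143 of 2024 (7.07%, 5.99 to 8.27%) at 5 to 50 kb. The share was higher again, 53 of 367 (14.4%, 11 to 18.5%), in pairs over 50 kb apart. Of the narrow members, 42.1% had another site within 500 bp (39.3 to 44.8%), and so had 28.6% of those of 400 to 1500 bp (26.9 to 30.4%) and 26.6% of wide ones (22.8 to 30.6%). The 81 members with no neighbour within 50 kb (1.83%) had a median width of 396 bp (322 to 580), 50.6% of them were narrow (39.3 to 61.9%) and 3 were wide. Such isolated sites were more frequent on each of the 18 other autosomes, from 2.55% on chromosome 5 to 6.15% on chromosome 18. Fewer sites stand alone where sites are dense, and chromosome 11 was chosen for its density.

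Runs of 10 or more sites in which no gap exceeded 12500 bp are called clusters. The members formed 72 clusters (56.3 to 90.7), which held 999 sites (22.6%, 21.4 to 23.9%) in 3.36% of the length. This came to 6.07 clusters per 10 Mb, against a median of 2.59 on the other autosomes and a highest value of 4.82 on chromosome 19. Chromosome 3 had a larger share of its sites in clusters, 29.8%. The median cluster of chromosome 11 was 51.7 kb long (45.8 to 57.5) with 13 sites, and 22.2% of its length was covered. Since a cluster is defined by short gaps, more clusters are found where sites are dense, and 60 of the 72 began in dense windows. No cluster lay in the 23.3 Mb from chr11:22772828 to chr11:46065350. The window at 98 to 99 Mb held 4 clusters, more than any other window.

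The longest cluster, which also had most sites, ran over 125 kb (chr11:118943023-119068399) with 30 sites, of which 4 were wide and 3 narrow. Those next in the number of sites held 27 (chr11:118039921-118116272), 24 (chr11:68849160-68948425), 24 (chr11:117144375-117228276) and 23 (chr11:48585036-48688499). A shorter cluster at 98 to 99 Mb held 23 sites as well. The others among the 5 longest ran over 111 kb (chr11:98560986-98671887) with 22 sites and 91.6 kb (chr11:58717107-58808707) with 14 sites. They differed in their sites. The cluster at 68 to 69 Mb had a median width of 1333 bp, 8 wide sites and 33.8% of its length covered. The cluster of 27 sites at 118 to 119 Mb had a median of 537 bp, 2 wide and 10 narrow sites, and 26.6% covered. The cluster of 23 sites at 48 to 49 Mb began with the site that ended the empty stretch of 2.32 Mb, so that it lay at the very border of a hole. The most covered cluster, 41.5% of 33.6 kb with 11 sites (chr11:74978408-75012006), had no narrow site. The least covered, 11.7% of 70.5 kb with 10 sites (chr11:75045196-75115717), had none either.

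**Figure D5:**
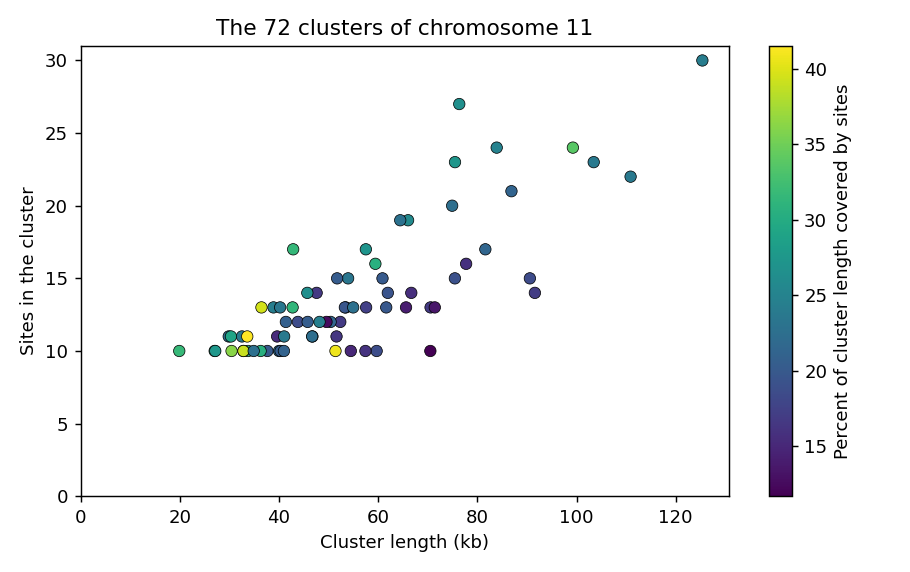
Number of sites against length in kb for each of the 72 clusters of chromosome 11 (points), with the percent of the cluster covered by sites as colour. The cluster at the upper right has 30 sites over 125 kb, and the lowest and highest covered shares are 11.7% and 41.5%.

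Sites in clusters were wider than those outside. Their median width was 750 bp (714 to 794, 999 sites), against 672 bp (649 to 690, 3418 sites). Narrow sites were 24.8% inside (22.2 to 27.6%) and 29.96% outside (28.4 to 31.5%), and wide ones 14.0% inside (11.9 to 16.3%) and 11.3% outside (10.3 to 12.4%), where the intervals overlap. At least 1 wide site was present in 58 of the 72 clusters. A median cluster had 13 sites, and 11.9% of all members were wide. At that share too, most clusters would hold a wide site. The median gap inside clusters was 2.16 kb (1.88 to 2.44, 927 gaps).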

How the data were processed

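Open chromatin was measured by DNaseI sequencing in 1 library of lymphoma T6. The submitters' processing notes name BWA 0.6.2, SAMtools and the build mm9. How sites were called, at which threshold and whether against the input is not given in the sources used here. As deposited, each site has a chromosome, a start and an end, without score or read number. Positions are counted from 1, and a site belongs to the window of its start. End windows shorter than 0.5 of the window size were left out. Both 1-Mb end windows of chromosome 11 were longer (0.786 and 0.818 Mb) and were counted with their true length. Among the segments of 10 Mb, the part after 120 Mb was left out by this limit. Intervals are exact Poisson, exact binomial (Clopper-Pearson) or, for medians, from order statistics; that for a difference of shares is a normal approximation. Named by rule were the 10 densest windows and widest sites, the 5 longest stretches, and the 5 clusters with most sites and the 5 longest. The chromosome, the classes and the rules were chosen with earlier results of these data known. The placement of sites at genes, planned with lists of genes, needs an mm9 annotation and was not analysed here. The scripts, tested on simulated data, ran in Python 3.11.15 with pandas 2.3.3, numpy 2.4.6, scipy 1.17.1 and, for plots, matplotlib 3.10.9.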

Additional observations from a re-analysis of the deposited data

Results flagged for a closer look

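The 53 sites of chromosome 11 before 3.2 Mb, which the rule leaves out, lay outside the windows, widths and clusters described above, and no control list was there to set them against. They ran over 188 kb (chr11:3004905-3192819), had a median width of 703 bp and covered 29.7% of that length. Neither repeats nor the input were looked at there.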

How the results depend on the processing

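Of 28 recomputed values, 12 stayed inside the counting interval (for numbers of clusters, a factor of 1.5) and 16 did not, and the single signed quantity kept its sign. Some moves follow from the change itself. Chromosome 11 had 1.70 times the median density of the other autosomes. This ratio was 1.77 for sites above the median width of the list and 1.75 by covered bases. It was 1.53 with the longest dense run and what follows it left out on chromosome 11 alone. Relative density outside site-free stretches was 1.35 at the limit of 500 kb, 1.16 at 200 kb and 1.42 at 1 Mb. Windows without a site were 5.08% with 2-Mb windows. The densest 10% of windows held 28.9% of the sites with 0.5-Mb windows, 28.9% among the wider sites and 24.5% with 2-Mb windows. With sites at most 1 kb apart joined, the median width was 872 bp and the median gap 10.24 kb, and the gap was 13.0 kb among the wider sites. Joining at 5 kb gave 8 clusters and joining at 25 kb gave 132, and there were 251 with a minimum of 5 sites and 11 among the wider sites. The lower share of narrow sites in dense windows kept its direction in its 3 alternatives, between -3.82 and -5.76 percentage points. The other limits of site-free stretches and the block left out were chosen after seeing the data. The distances to gene starts were not run. No paired analysis was possible because there was 1 library. Sites have no counts, so what depth limits could not be judged.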
